A study of Homo sapiens with 6 samples.

Results

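The metallothionein genes described here were the 5 rows named MT2A, MT1X, MT1E, MT1F and MT1G, of 40173 gene rows in the count table. They were chosen by name, and 4 of them, all but MT1G, had enough reads to be among the 15250 genes tested. After silencing of FAM83H-AS1, MT1E fell by 0.39 on the log2 scale, a call that was lost in 5 of the 6 fits that left out a library. MT2A, MT1X and MT1F had higher mean levels but did not pass the test, and the summed level of the 5 genes was nearly the same in both groups.

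The cells were A549, a lung adenocarcinoma cell line of human origin, and all 6 libraries came from this line. The control group was transfected with a negative control and the silenced group with siRNA against FAM83H-AS1, a long noncoding RNA, with 3 libraries in each group, and the study's methods put RNA collection 24 h after transfection. Silenced replicates are numbered here as in the deposited table, while the study's supplement orders them differently, so that their numbers are only names. All libraries were made from total RNA and sequenced on the Ion Proton platform. The sources used here do not say which siRNA sequence was used for these libraries or whether they came from separate cultures, so that the p-values measure only the spread between these libraries, which may be technical. In RNA from many cells, fewer cells expressing a gene and less RNA per cell cannot be told apart.

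Metallothioneins are small proteins rich in cysteine that bind zinc, copper and cadmium and buffer these metals in the cell. MT2A and the MT1 genes lie side by side in 1 cluster. Their transcription is known to rise with zinc or cadmium through the metal sensor MTF1, which binds metal response elements in their promoters, and also with glucocorticoids and oxidative stress. In lung epithelium they are known as part of the defence against inhaled metals and oxidants.

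The 5 genes were close copies of each other, which matters for reading their counts. In GENCODE 29 transcripts, each coding sequence had 186 bases, with 20 cysteine codons among 61 codons, and the identity between members ran from 88.7% for MT1X and MT1F to 95.2% for MT2A and MT1G. The opening 30 coding bases, 5′ to 3′, are shown because they hold the start of this shared frame, and capitals mark the bases that differ from MT2A.
MT2A: atggatcccaactgctcctgcgccgccggt
MT1X: atggaCcccaactgctcctgcTcGCcTgTt
MT1E: atggaCcccaactgctcTtgcgccAcTggt
MT1F: atggaCcccaactgctcctgcgccgcTggt
MT1G: atggaCcccaactgctcctgTgccgcTggt
Differences from MT2A numbered 6 in MT1X, 4 in MT1E, 3 in MT1G and 2 in MT1F.

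In the GRCh38 annotation of GENCODE 29, all 5 genes lay on chromosome 16 with 3 exons each. MT2A was at chr16:56608199-56609497, MT1E at chr16:56625475-56627112, MT1F at chr16:56657694-56660698 and MT1X at chr16:56682424-56684196 on the plus strand, and MT1G was at chr16:56666731-56668065 on the minus strand. The deposited counts were made on GRCh37, so these positions describe the genes and were not used for counting. MT1X overlapped 1 further annotated gene, AC026461.1, on the same strand, and the other members overlapped none.

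Promoters of 2 of the 5 members, MT2A and MT1X, matched the RefSeq promoter table (GRCh38.p14), which spans 250 bases before to 50 bases after each start site. The core of the metal response element was searched on both strands as TGCACNC and TGCGCNC, which cannot start at the same base of the same strand, while matches on opposite strands can overlap. MT2A held 8 matches and MT1X held 4. At least 1 match was present in 29.6% of 35116 promoters, at least 4 in 0.601% and at least 8 in 0.0199%. A match is a description of the sequence and no evidence of binding. The matches below, in windows of 30 bases on the plus strand, are 5 of the matches upstream of the start sites, shown as examples of both core forms and both strands, and capitals mark the core, read on the minus strand for the matches at -88 and -78. The GENCODE model of MT2A starts upstream of the RefSeq start site and spans its windows.
MT2A at -54, chr16:56608519-56608548: ggcggggctttTGCACTCgtcccggctctt
MT2A at -88, chr16:56608485-56608514: cagcgcggggcGTGTGCAggcagcgcccgg
MT1X at -53, chr16:56682406-56682435: ggcggggcctcTGCGCCCggccctcttccc
MT1X at -78, chr16:56682381-56682410: tcagcaggggcGGGTGCAaggacgaggcgg
MT1X at -122, chr16:56682337-56682366: tcacgggttgcTGCACCCggcccaggatcg

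Each library held between 9738291 and 17742643 counts. Levels are given as counts-per-million (CPM) after TMM scaling of the library sizes. FAM83H-AS1, the targeted RNA, was at 14.5, 15.98 and 17.3 CPM in control replicates 1 to 3 and at 4.59, 4.44 and 5.57 CPM in silenced replicates 1 to 3, a log2 fold change of -1.70 (SE 0.148, edgeR adjusted p = 7.99e-05). All silenced libraries were below all control libraries. Markers of other cells were checked as lists. The 9 markers listed for A549 and lung adenocarcinoma epithelium summed to 4500 to 4858 CPM in control and 3645 to 3681 CPM in silenced libraries. Nearly all of this came from KRT7, KRT8 and KRT18, and AKR1C1 lay between 71.7 and 130 CPM. The other markers of this list were low. EPCAM was at most at 4.49 CPM, AKR1B10 at 2.44, CDH1 at 1.66, KRT19 at 1.21 and ALDH1A1 at 0.149 CPM in any library. The name A549 is taken from the study, and several of the markers listed for it were thus low or near 0 in these libraries. Whether the cells were A549 was not tested here. The 4 leukocyte markers summed to 124 to 142 CPM and 226 to 255 CPM, nearly all from the lysosomal gene CD68, and CD3E was at 0 in every library. The endothelial list reached at most 6.39 CPM, the fibroblast list 41.8 CPM and ALB 0.0925 CPM in any library. The part of the keratin and CD68 shifts in the results below was not tested.

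MT2A, the metallothionein with the most reads over all libraries, had 811, 762 and 1343 reads in control replicates 1 to 3 and 983, 800 and 1500 reads in silenced replicates 1 to 3. On the CPM scale this was 83.4, 65.8 and 79.4 in control and 96.0, 74.0 and 111 in silenced libraries. Silenced replicate 2 was below control replicates 1 and 3, so that the groups overlapped, while silenced replicates 1 and 3 were above all control libraries. The mean was 76.2 ± 9.21 CPM in control and 93.8 ± 18.9 CPM in silenced libraries (SD, n = 3). The log2 fold change of 0.30 (SE 0.137, 95% interval 0.00 to 0.60) did not pass the test across all genes (edgeR adjusted p = 0.154). Without silenced replicate 2 it was 0.45 and passed (edgeR adjusted p = 0.0255). It was 0.16 without silenced replicate 3 and 0.21 without control replicate 2 (edgeR adjusted p = 0.472 and 0.393).

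MT1X, another metal-inducible member, gave 86, 97 and 147 reads in control and 148, 84 and 224 reads in silenced libraries. Its levels were 8.84, 8.38 and 8.69 CPM in control and 14.5, 7.77 and 16.7 CPM in silenced replicates 1 to 3. The control libraries lay close together, and the silenced libraries were split: replicates 1 and 3 stood above all controls and replicate 2 stood below all controls. The means were 8.64 ± 0.237 CPM and 12.96 ± 4.63 CPM (SD, n = 3), and the spread in the silenced group was of the same size as the difference. The log2 fold change was 0.59 (SE 0.229, 95% interval 0.09 to 1.095) and did not pass (edgeR adjusted p = 0.101). It was 0.85 without silenced replicate 2 and then passed (edgeR adjusted p = 0.00374), and it was 0.36 without silenced replicate 3 (edgeR adjusted p = 0.341).

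MT1E was the member that moved the other way. It had 4669 reads over the 6 libraries and was at 58.9, 74.5 and 80.1 CPM in control replicates 1 to 3 and at 53.6, 54.7 and 54.8 CPM in silenced replicates 1 to 3. The silenced libraries lay close together, and each of them was below each control library. The mean level was 71.2 ± 10.99 CPM in control and 54.4 ± 0.667 CPM in silenced libraries, each as mean and SD of 3. MT1E passed the test with a log2 fold change of -0.39 (SE 0.105, 95% interval -0.62 to -0.16, edgeR adjusted p = 0.0274). The two-sided exact permutation test gave p = 0.1, the smallest value possible for 3 against 3. The call was kept without control replicate 1, with a log2 fold change of -0.51 (edgeR adjusted p = 0.00461). It was lost when any other library was left out, with log2 fold changes of -0.36 and -0.30 without control replicates 2 and 3 (edgeR adjusted p = 0.0838 and 0.0893) and of -0.38, -0.40 and -0.40 without silenced replicates 1 to 3 (edgeR adjusted p = 0.0939, 0.0540 and 0.0596).

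MT1F and MT1G had few reads. MT1F was counted at 12, 22 and 21 reads in control and 22, 16 and 25 reads in silenced libraries, or 1.46 ± 0.383 CPM against 1.83 ± 0.335 CPM (SD, n = 3). Its groups overlapped, and the log2 fold change of 0.33 (SE 0.303, 95% interval -0.33 to 0.995) did not pass (edgeR adjusted p = 0.487). MT1G had 1, 1 and 3 reads in control and 2, 0 and 3 reads in silenced libraries. As each library was at or under 3 reads, a difference in MT1G was not detectable at this depth, and no fold change is given.

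**Figure D1:**
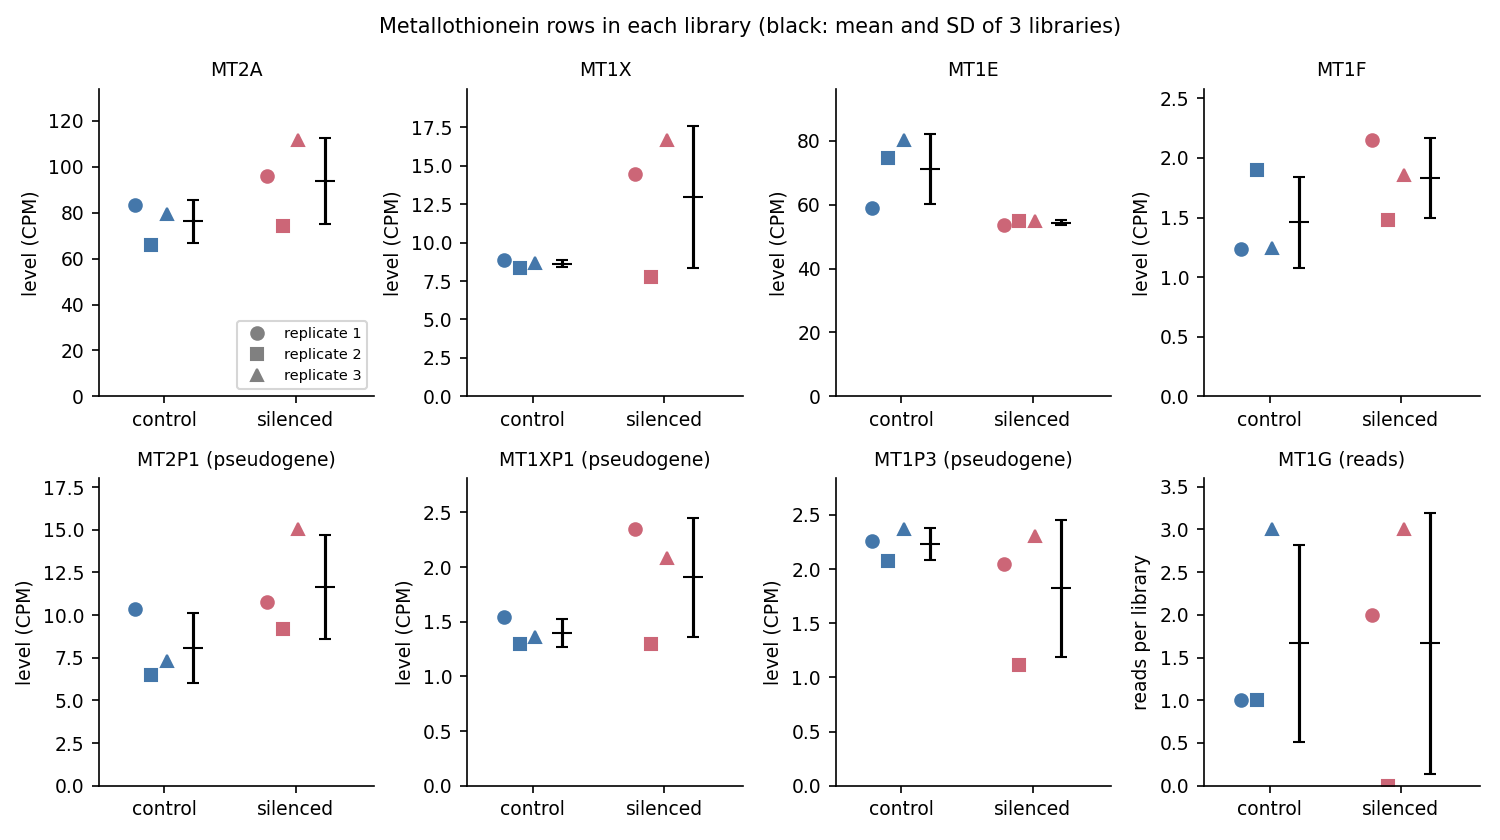
The level in CPM of the 4 tested members and of 3 metallothionein pseudogenes, and the reads of MT1G, in the 3 control (blue) and 3 silenced (red) libraries, with the replicate number as the symbol and the mean and SD in black. MT1E was lower in each silenced library, from 53.6 to 54.8 CPM, and silenced replicate 2 (square) was the lowest silenced library for MT2A and MT1X.

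Among the 4 tested members, 0 passed with a higher and 1 with a lower level in edgeR, and the same counts were found with DESeq2. At an unadjusted p under 0.05 there were 2 with a higher level, MT2A and MT1X, and 1 with a lower level, MT1E. Of all tested genes, 17.0% passed in either direction, 8.75% higher and 8.27% lower. The members without overlap between the groups numbered 1, against 36.6% of all tested genes, and the members that also passed a fold change of 2, the threshold of the study, numbered 0, against 2.14% of all tested genes. The median log2 fold change was 0.32 over the 4 members and -0.00 over all tested genes. With 4 members, 1 call is no share that can be read against that of all genes.

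MT2A and MT1E carried most of the metallothionein RNA. Levels per kilobase depend on the transcript model taken for each gene, which had 786 bases for MT2A, 704 for MT1E and 450 for MT1X. The coding sequence began at base 458, 378 and 118 of these models. Other models could change the order of the genes and were not tried. With these models, control libraries held 101 ± 15.6 CPM per kilobase of MT1E and 96.9 ± 11.7 of MT2A (SD, n = 3). These 2 values did not differ beyond their spread. MT1X followed at 19.2 ± 0.526, MT1F at 2.11 ± 0.554 and MT1G at 0.301 ± 0.119 CPM per kilobase, each separated from its neighbours by more than the spread. In silenced libraries MT2A was at 119 ± 23.99 and MT1E at 77.2 ± 0.948 CPM per kilobase. MT2A was above MT1E in 3 of 3 silenced libraries, the nearest pair being 94.1 against 77.8 CPM per kilobase in replicate 2. In control libraries MT2A was above MT1E in 1 of 3, control replicate 1, at 106 against 83.7 CPM per kilobase. The rest of the order was the same in the silenced group, with MT1X at 28.8 ± 10.3, MT1F at 2.65 ± 0.486 and MT1G at 0.343 ± 0.299 CPM per kilobase.

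The 5 genes together reached 152, 151 and 170 CPM in control and 166, 138 and 185 CPM in silenced replicates 1 to 3. The groups overlapped at means of 158 ± 10.4 and 163 ± 23.7 CPM (SD, n = 3), a ratio of 1.04. The sum over all metallothionein rows in the table, members and others, was 170 ± 10.6 against 179 ± 27.7 CPM, a ratio of 1.05. As reads of near-identical genes can be assigned to the wrong copy, this sum depends less on that assignment than the single rows do.

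Within the sum, the share of MT1E was lower on average and that of MT2A higher. MT1E made up 38.6%, 49.5% and 47.2% of the members' reads in control and 32.2%, 39.7% and 29.6% in silenced replicates 1 to 3. MT2A made up 54.7%, 43.7% and 46.8% in control and 57.7%, 53.6% and 60.3% in silenced libraries. For both genes the groups overlapped, through control replicate 1 and silenced replicate 2.

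The ratio of MT1E reads to MT2A reads, which a difference in depth between libraries cannot change, was 0.707, 1.13 and 1.01 in control and 0.558, 0.740 and 0.491 in silenced libraries. Only silenced replicate 2 was above a control library, and the two-sided exact permutation test gave p = 0.2. The ratio of MT1E to MT1X reads was 6.66, 8.90 and 9.22 in control and 3.71, 7.05 and 3.29 in silenced libraries (exact permutation p = 0.2). MT1X over MT2A was 0.106, 0.127 and 0.109 against 0.151, 0.105 and 0.149 (exact permutation p = 0.4). No ratio separated the groups, and in each of them silenced replicate 2 was the silenced library nearest to the control mean.

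**Figure D2:**
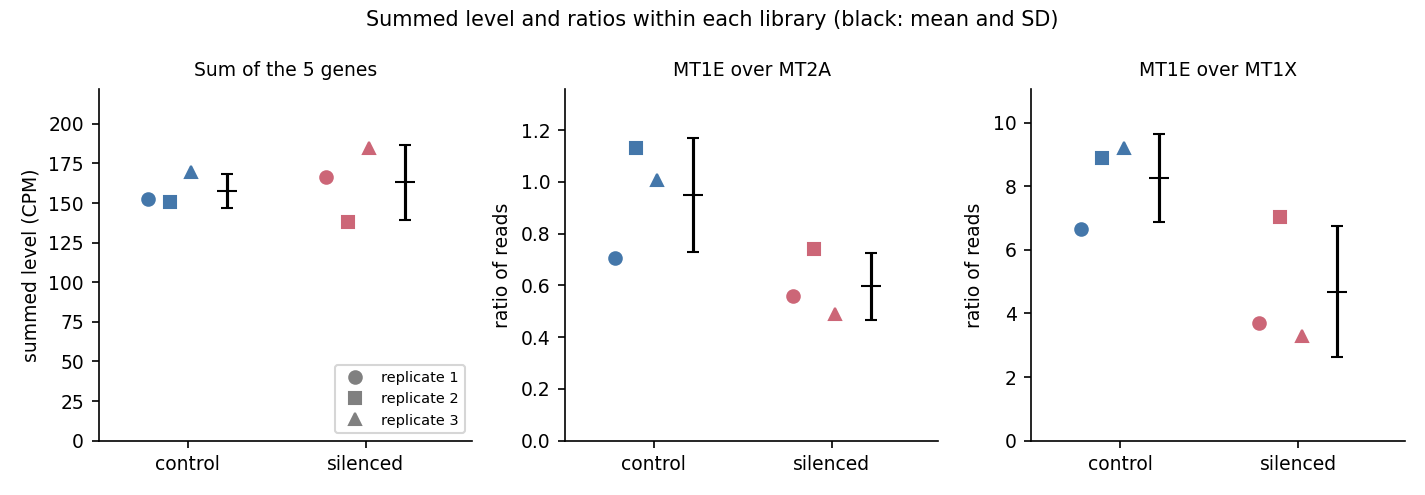
The summed level of the 5 genes in CPM and the ratios of MT1E reads to MT2A and to MT1X reads in each control (blue) and silenced (red) library, with the mean and SD in black. The sums overlap at 158 and 163 CPM, while 2 of the 3 silenced libraries lie below all control libraries in both ratios.

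The table held 16 of 17 further listed rows, of which 5 (MT1A, MT1HL1, MT1M, MT1IP and MT3) were at 0 in all 6 libraries and 3 were tested. MT2P1, a pseudogene of MT2A, had 101, 75 and 124 reads in control and 110, 99 and 202 reads in silenced libraries, with a log2 fold change of 0.55 (SE 0.217, edgeR adjusted p = 0.105). MT1XP1, a pseudogene of MT1X, had 15, 15 and 23 against 24, 14 and 28 reads, with a log2 fold change of 0.45 (SE 0.304, edgeR adjusted p = 0.336). Both pseudogenes had overlapping groups and a higher mean in the silenced group, like the genes they copy. MT1P3 had 22, 24 and 40 reads in control and 21, 12 and 31 reads in silenced libraries, with a log2 fold change of -0.28 (SE 0.301, edgeR adjusted p = 0.553). The other 8 rows, MT1DP, MT1JP, MT1P1, MT1B, MT1H, MT1L, MT1CP and MT4, had at most 8 reads in a library.

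Reads of a parent gene that were counted in a pseudogene row cannot be told apart from reads of the pseudogene. In stretches of 50 bases, 45.1% of the MT1X transcript (181 of 401 stretches) was also found in another gene's transcript. AC026461.1, which overlaps MT1X on the same strand and was not a row of the table, held 117 of them. Such stretches can be the same bases of the genome and no further copy, so that this share can overstate how far reads are shared. MT1G held 47 and MT1XP1 held 38. The share of stretches found in another gene was 20.2% for MT1G, 5.34% for MT1E, 4.88% for MT2A and 3.59% for MT1F. In stretches of 100 bases it was 19.1% for MT1X, all from AC026461.1, and 0 for the other members. The read length and the treatment of reads with several matches were not given in the sources used here. By the shares in stretches of 50 bases, MT1X and MT1G are the least certain rows. These shares depend on the transcript models, and other models could change this order. The coding sequence began at base 458 for MT2A, 378 for MT1E and 366 for MT1F, against 118 for MT1X and 73 for MT1G. The ratio of MT2P1 to MT2A reads stayed between 0.0923 and 0.135 in the 6 libraries and that of MT1XP1 to MT1X between 0.125 and 0.174, and neither separated the groups (exact permutation p = 0.3 and 0.7). With the pseudogene reads added to the parent rows, the log2 fold changes were 0.33 for MT2A and 0.57 for MT1X (edgeR adjusted p = 0.135 and 0.0971).

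**Figure D3:**
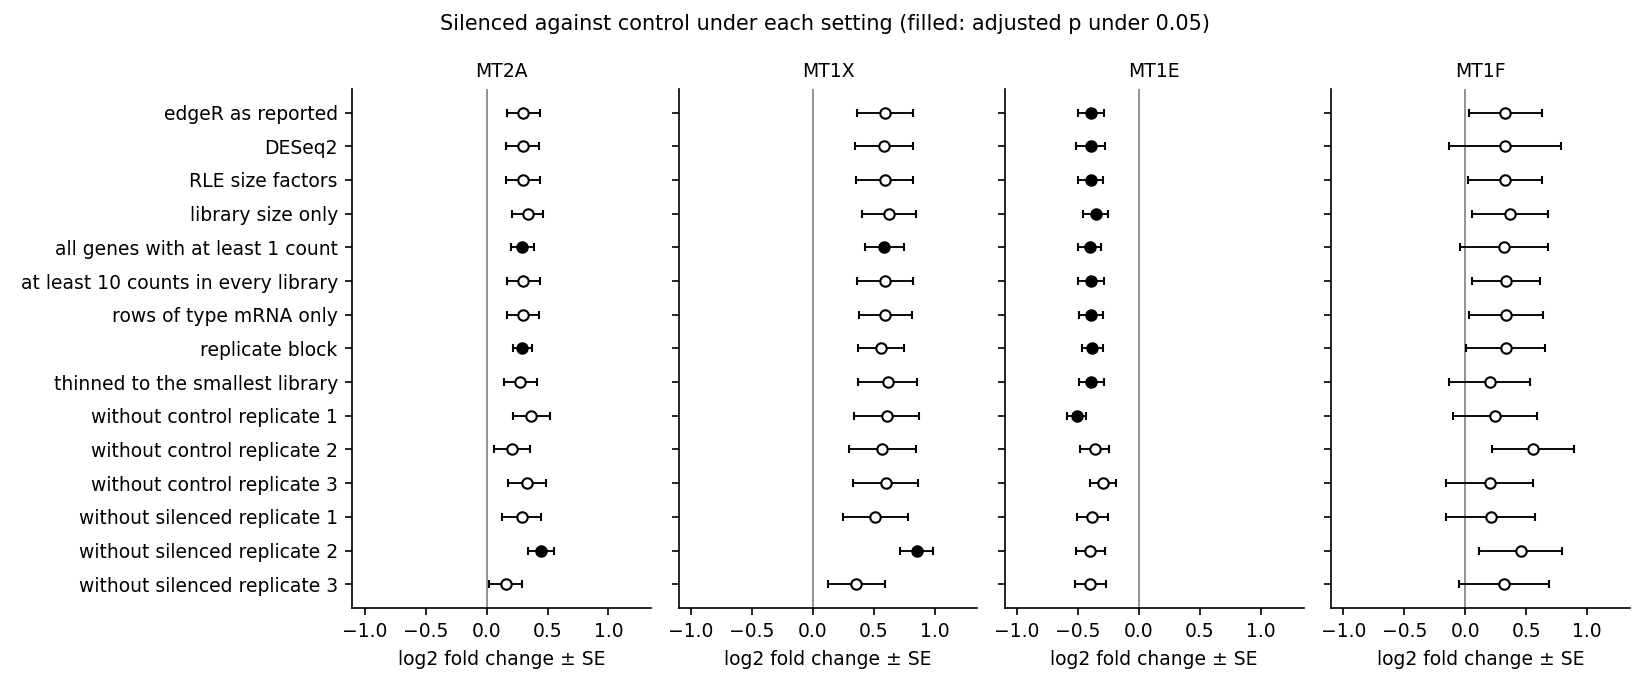
The log2 fold change of silenced against control libraries, with its SE, for the 4 tested members under each way of fitting the counts, with filled points where the adjusted p was under 0.05. MT1E was below 0 and the other members were above 0 throughout, and the call of MT1E was lost in 5 of the 6 fits that left out a library.

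The member with the widest range over the 6 libraries was MT1X, with a distance of 1.01 between its lowest and highest log2(CPM + 1). Its pattern over the libraries was compared with 10025 tested genes at a mean of at least 10 CPM by the root mean square difference of centred log2(CPM + 1) values, where 0 means the same pattern. The nearest were RPL6P19, a ribosomal protein pseudogene, at 0.0964, NOTCH3, a Notch receptor, at 0.1204, FTH1P10, a ferritin pseudogene, at 0.125, PFKFB4, a regulator of glycolysis, at 0.130, and ADM, which encodes the peptide adrenomedullin, at 0.139. As for MT1X, to which they were matched, silenced replicate 2 was the lowest silenced library in all 5 genes. ADM, for example, was at 62.6, 73.2 and 68.7 CPM in control and 117, 76.6 and 126 CPM in silenced libraries.

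Within the family, MT2A and MT1X were 0.192 apart on the same measure, and MT1E stood at 0.422 from MT2A and 0.545 from MT1X. Silenced replicate 2 had the lowest level of the silenced group for MT2A and MT1X. MT1F, at 22, 16 and 25 reads in silenced replicates 1 to 3, had too few reads to be ranked. FAM83H-AS1 was at 4.44 CPM (48 reads) in silenced replicate 2 and at 4.59 CPM (47 reads) in silenced replicate 1. These 2 levels are too close to be ranked. The total of silenced replicate 2, 10588505 counts, lay between those of silenced replicates 1 and 3.

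Of 7 rows listed for MTF1 and its metal-responsive targets, 5 were tested and 0 passed in either direction in edgeR or DESeq2, with a median log2 fold change of 0.04. GCLC, which starts glutathione synthesis, was the 1 gene of this list at an unadjusted p under 0.05 in edgeR, with a log2 fold change of 0.20. MTF1 was at 23.6, 22.3 and 27.3 CPM in control and 24.9, 24.6 and 26.0 CPM in silenced libraries (log2 fold change 0.04, SE 0.102, edgeR adjusted p = 0.823). SLC30A1, the zinc exporter of the plasma membrane that MTF1 induces with zinc, was at 58.1, 55.7 and 59.7 CPM against 55.2, 62.0 and 61.7 CPM (log2 fold change 0.04, SE 0.0780, edgeR adjusted p = 0.733). Both genes overlapped between the groups.

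Most SLC30 zinc transporters move zinc out of the cytosol. Of the 5 tested besides SLC30A1, 0 passed in edgeR or DESeq2, with a median log2 fold change of -0.10. Of these, 1 higher and 1 lower were at an unadjusted p under 0.05 in edgeR. Of 11 tested SLC39 transporters, which bring zinc into the cytosol, 2 rose and 0 fell, in edgeR and in DESeq2, with a median of 0.07 and with 2 higher and 2 lower at an unadjusted p under 0.05 in edgeR. This count is close to the 17.0% of all tested genes that passed. SLC39A14 was at 317, 301 and 303 CPM in control and 385, 381 and 376 CPM in silenced libraries, without overlap (log2 fold change 0.31, SE 0.0633, edgeR adjusted p = 0.00841). SLC39A13 rose by 0.35 with overlapping groups (SE 0.107, edgeR adjusted p = 0.0471), a call that was lost in 4 of the 6 fits that left out a library: those without control replicate 2 or 3 or without silenced replicate 1 or 3.

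Copper genes were read next, as metallothioneins also hold copper. Of 16 tested, 1 rose and 2 fell, with a median log2 fold change of -0.11, a count close to the 17.0% of all tested genes that passed. ATP7A, a copper-exporting ATPase, rose by 0.42 (SE 0.0887, edgeR adjusted p = 0.00999). SOD1, the cytosolic copper and zinc superoxide dismutase, was at 225, 217 and 204 CPM in control and 132, 103 and 171 CPM in silenced libraries, without overlap (log2 fold change -0.67, SE 0.143, edgeR adjusted p = 0.0104). COX11, which delivers copper to cytochrome c oxidase, fell by 0.39 on the log2 scale (SE 0.0929, edgeR adjusted p = 0.0165), a call lost without control replicate 2 and without silenced replicate 1.

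Glucocorticoids are the other known inducers of MT2A and MT1X. The glucocorticoid receptor gene NR3C1 had a log2 fold change of 0.17 (SE 0.0828, edgeR adjusted p = 0.180). Of 17 tested genes in the list of this receptor and its targets, 5 rose and 0 fell, in edgeR and in DESeq2, against 8.75% higher and 8.27% lower over all tested genes, and 8 higher and 1 lower were at an unadjusted p under 0.05 in edgeR. The median log2 fold change of the list was 0.17. As the list was chosen with earlier results of these data known, its count cannot be read as a test against all genes. The genes that rose were ERRFI1, a feedback inhibitor of EGFR, at 0.95, ZFP36, which promotes mRNA decay, at 0.73, the kinase gene SGK1 at 0.68, the phosphatase gene DUSP1 at 0.56 and the apoptosis inhibitor BIRC3 at 0.35 (log2 fold changes, edgeR adjusted p from 0.000933 to 0.0105). The call of BIRC3 was lost without silenced replicate 1. These 5 genes are also known to answer to growth factor and inflammatory signals. The other 12 tested genes of the list did not pass. Besides NR3C1, the higher ones were ANGPTL4 at 0.46, KLF9 at 0.32, PDK4 at 0.28, PER1 at 0.16, NFKBIA at 0.13 and TSC22D3 at 0.04. The lower ones were GLUL at -0.29, FKBP5 at -0.15, LCN2 at -0.13, SLC19A2 at -0.12 and CEBPD at -0.09 (log2 fold changes, edgeR adjusted p from 0.0672 to 0.844).

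In the list of heat shock and metal stress genes, 15 were tested, of which 1 rose and 2 fell, with a median log2 fold change of -0.00, a count near the 17.0% of all tested genes that passed. DESeq2 also called HSP90AA1, a cytosolic chaperone gene, higher, which had a log2 fold change of 0.25 in edgeR (adjusted p = 0.0892). HMOX1, the haem oxygenase gene that is induced by heavy metals and oxidants, was at 28.0, 27.4 and 30.5 CPM in control and 60.0, 52.9 and 50.6 CPM in silenced libraries, without overlap (log2 fold change 0.92, SE 0.0915, edgeR adjusted p = 0.000172). The mitochondrial chaperonin genes HSPD1 and HSPE1 fell by 0.63 and 0.31 on the log2 scale (edgeR adjusted p = 0.000732 and 0.0350). The call of HSPE1 was kept only without control replicate 1 among the 6 fits that left out a library.

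**Figure D4:**
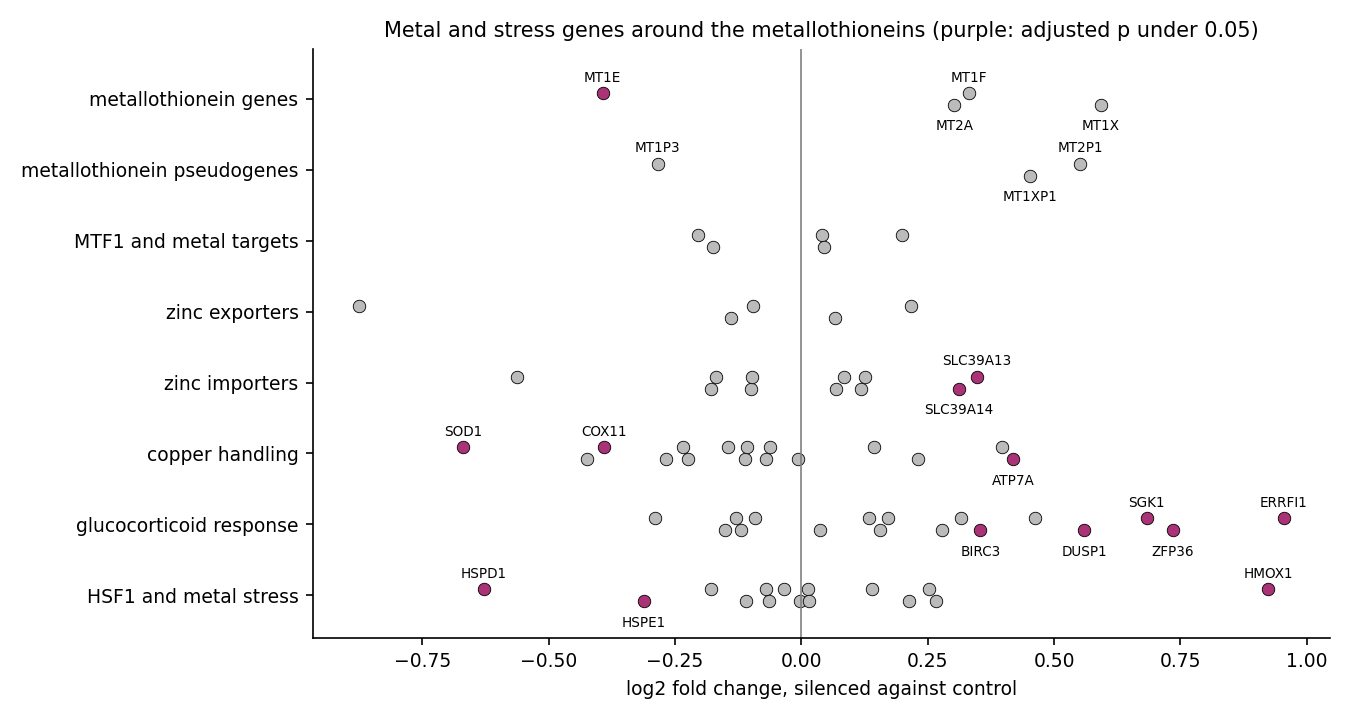
The log2 fold change of silenced against control libraries (x axis) for each tested gene of the metallothionein, MTF1, zinc, copper, glucocorticoid and stress lists (rows), with genes at an adjusted p under 0.05 in purple and named. MTF1 with its targets and the zinc exporters hold 0 such genes, and HMOX1 at 0.92 and ERRFI1 at 0.95 lie furthest to the right.

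The genes beside the cluster on 16q13 were compared with the metallothioneins. Of 17 tested neighbours, 3 rose and 2 fell, with a median log2 fold change of -0.03, beside 17.0% of all tested genes that passed, and DESeq2 did not call BBS2. NUP93, a nuclear pore gene that follows the cluster, was at 159, 153 and 164 CPM in control and 90.3, 90.1 and 96.8 CPM in silenced libraries (log2 fold change -0.78, SE 0.0714, edgeR adjusted p = 0.000103). SLC12A3, a sodium chloride transporter gene next to it, fell by 0.73 (SE 0.137, edgeR adjusted p = 0.00603). The genes that rose were ARL2BP at 0.35, BBS2 at 0.31 and HERPUD1 at 0.25 (edgeR adjusted p from 0.0195 to 0.0410). These 3 calls were lost in 4, 6 and 5 of the 6 fits that left out a library, and ARL2BP kept its call only without control replicate 2 and without silenced replicate 3, and HERPUD1 only without silenced replicate 2. OGFOD1, on the other side of the cluster, was at 76.9 ± 1.72 CPM in control and 79.8 ± 7.31 CPM in silenced libraries (SD, n = 3). Neighbours of the cluster had values in both directions, as the metallothioneins did.

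**Figure D5:**
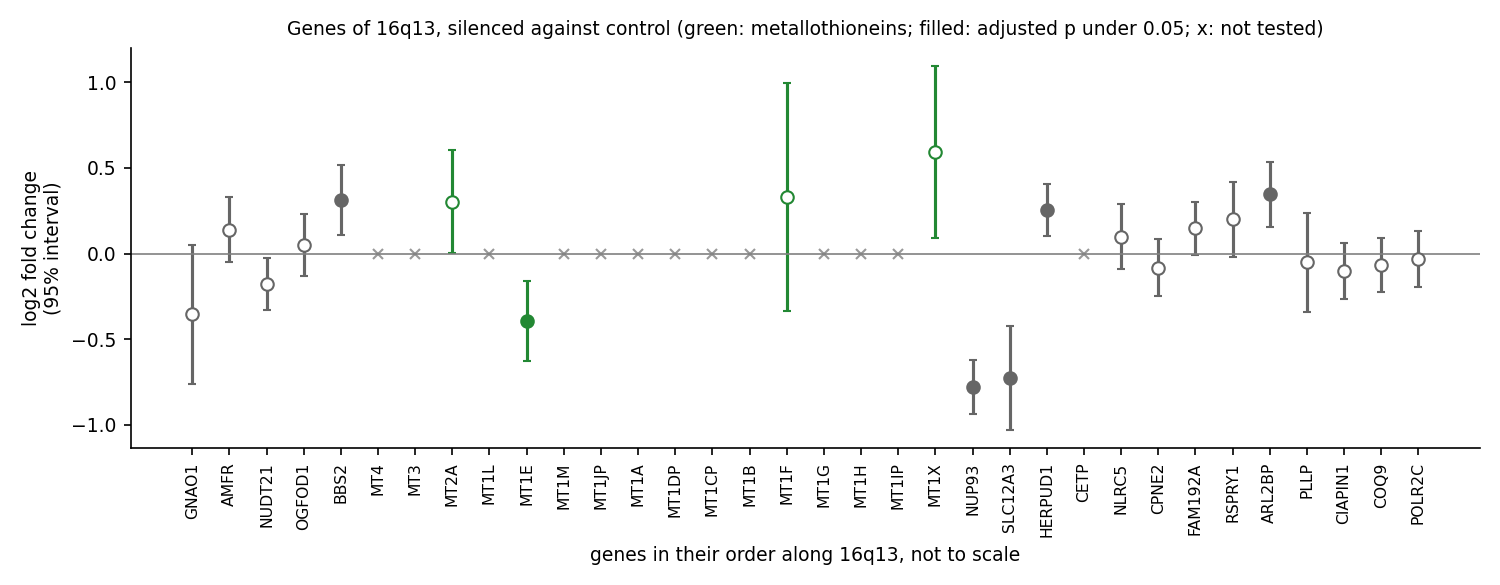
The log2 fold change with its 95% interval for genes in their order along 16q13, with metallothioneins in green, filled points for an adjusted p under 0.05 and crosses for genes without enough reads. MT1E at -0.39 is the green point that passed, and NUP93 at -0.78 and SLC12A3 at -0.73 lie lowest.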

How the data were processed

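RNA-Seq was measured in 3 control and 3 silenced libraries of cells that the study names A549. Per the labels and the study's methods, total RNA was made into Ion Proton libraries, and MapSplice was used by the authors to count mapped reads per gene, before their own comparison with DESeq. GRCh37 is the build in the submitters' processing notes. The deposited values are raw counts of 40173 gene rows, whole and not normalized, and 14309 rows were at 0 in all libraries. The annotation, strand setting, read length and treatment of reads with several matches were not given in the sources used here. Totals lay between 9738291 and 17742643 counts per library, and counts of replicates differed by more than sampling noise (chi-square per degree of freedom from 3.92 to 26.8).

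The counts were fitted with edgeR 4.0.16 in R 4.3.3, using filterByExpr, TMM and the quasi-likelihood F test on the group alone, with Benjamini-Hochberg adjustment over 15250 genes. The SE was derived from the log2 fold change and F, and a gene passed with an adjusted p under 0.05. Single values were compared by two-sided exact permutation tests. DESeq2 1.42.0, other scaling factors and filters, a replicate block, thinned counts and each library left out were tried as alternatives, and the fit was tested on simulated data. All 5 members are named, with other metallothionein rows by their values from a mean of 10 counts, list genes that passed (at most 6 a list), MTF1, SLC30A1 and NR3C1, and the 5 genes nearest to the member of the widest range. Some list genes that did not pass are also named. The members and lists were chosen with earlier results of these data known. Gene positions and transcripts came from GENCODE 29 and promoters from RefSeq, on GRCh38.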

Additional observations from a re-analysis of the deposited data

How the results depend on the processing

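No direction of the 4 tested members reversed under 15 alternatives each. The stricter threshold of 0.01, which is 1 of them, leaves the fold changes unchanged and could not reverse a direction. The log2 fold change ranged from 0.16 to 0.45 for MT2A, from 0.36 to 0.85 for MT1X, from -0.51 to -0.30 for MT1E and from 0.20 to 0.56 for MT1F (edgeR or DESeq2 adjusted p from 0.0122 to 0.472, 0.00351 to 0.341, 0.000356 to 0.0939 and 0.317 to 0.762). With 1 library left out, the ranges were 0.16 to 0.45, 0.36 to 0.85, -0.51 to -0.30 and 0.20 to 0.56. With all genes of at least 1 count tested, MT2A at 0.29 and MT1X at 0.58 passed (edgeR adjusted p = 0.0122 and 0.00351). The p-values of this fit equalled those of a normal distribution for the log2 fold change over its SE. They thus rested on a spread shared across genes and not on each gene's own spread. No call of MT2A or MT1X is drawn from them. The lowest adjusted p-values of MT2A, MT1X and MT1E above, and the counts of calls from this fit below, carry the same limit. At an adjusted p under 0.01, MT1E at -0.39 did not pass.

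The replicate numbers matched the likeness of the libraries only in part. Correlations of same-numbered deviations from the group means were 0.31 and 0.27 for replicates 1 and 2, the highest for these libraries. For replicate 3 the correlation was -0.05, and silenced replicate 3 correlated better with control replicate 1 (0.20). Whether the numbers mark pairs was not settled. The numbers of the silenced libraries are in doubt, since the study's supplement orders them differently. With the replicate block, MT2A at 0.29 passed (edgeR adjusted p = 0.0266), MT1X at 0.56 and MT1F at 0.33 did not (edgeR adjusted p = 0.0588 and 0.494), MT1E at -0.38 did (edgeR adjusted p = 0.0119), and calls over all genes numbered 1714 higher and 1735 lower.

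Calls over all genes, 1334 higher and 1261 lower (51.4% higher), became 469 and 434 at an adjusted p under 0.01, 1554 and 1895 with all genes of at least 1 count, and 1555 and 991 with library size alone (61.1% higher). Leaving out 1 library gave 634 to 1002 higher and 591 to 1002 lower, with fewest without silenced replicate 1. The left-out fits hold fewer samples, and otherwise the cause was not tested. The log2 ratio of the sum was 0.05 for the 5 members (-0.05 to 0.16 with 1 library left out, lowest without silenced replicate 3) and 0.08 for all metallothionein rows (-0.03 to 0.19). Only the fit of all genes with at least 1 count gave a value for MT1G. Its SE was 1.11 on the log2 scale, too wide to be read with so few reads. The addition of pseudogene reads was chosen after seeing the data. Low depth limits MT1F and MT1G, and the call of MT1E rests on small groups.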
